A study of Mus musculus with 6 samples.

Results

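Secreted and membrane proteins of the B lineage are folded in the endoplasmic reticulum (ER), and 44 genes that serve this step were followed across 3 groups of Eµ-Myc mouse B cells. The genes were chosen by symbol from a list of stress sensors, chaperones, degradation factors and translocon subunits, and each was represented by its brightest probe set. All 44 were measured, out of 19938 genes with a named probe set on the Affymetrix Mouse Gene ST array. Eµ-Myc mice carry a Myc transgene driven by the immunoglobulin heavy chain enhancer, so that Myc is overexpressed in B cells, and they develop B cell lymphoma. The first group held premalignant splenic B cells, sorted from Eµ-Myc mice before lymphoma. The other groups held primary Eµ-Myc lymphomas with a short hairpin RNA directed at Ezh2, which encodes the enzyme of polycomb complex PRC2 that methylates histone H3 at lysine 27. One lymphoma group carried the hairpin shEzh2.781 and the other shEzh2.556, and each of the 3 groups had 2 arrays.

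All 3 groups share the Eµ-Myc transgene. The series design calls the premalignant samples independent preparations, although one label field calls these cells normal B cells, and nothing states whether both lymphomas of a hairpin were taken from different animals. The p-values thus reflect only how these samples scatter, and that scatter may be technical. Lymphomas free of an Ezh2 hairpin were not analysed here. CD43 beads were used to purify the lymphoma cells to at least 95% positive for B220 and GFP. Malignancy, the hairpin and the cell preparation cannot be told apart in a comparison with premalignant cells.

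The ER receives nascent chains through the Sec61 channel, where the signal peptide is cut off and sugars are attached, and resident chaperones and disulfide isomerases then fold them. Chains that fail to fold are pulled back to the cytosol and degraded, a route called ER-associated degradation (ERAD). When unfolded chains build up, the sensors IRE1 (gene Ern1), PERK (Eif2ak3) and ATF6 start the unfolded protein response, which slows translation and raises chaperone, ERAD and translocon genes through XBP1, ATF4 and cleaved ATF6. In the B lineage this system is best known for its expansion when B cells become antibody-secreting plasma cells.

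A gene was called at a limma p-value below 0.05 after Benjamini-Hochberg adjustment over all 19938 genes. Compared with premalignant cells, the lymphomas of both hairpins had 7 of the 44 ER genes called higher, against 5.6% of all genes, and 2 called lower, against 9.61% of all genes. By role the counts are small, and no difference between roles was tested. Of 8 sensors and stress effectors, 2 fell and none rose. Of 18 chaperones and folding enzymes, 3 rose and none fell. None of the 8 ERAD genes was called in either direction. Of 10 translocon and signal peptidase genes, 4 rose and none fell. The median log2 difference was 0.1 over the 44 genes and 0.025 over all genes. It was -0.016 for sensors and effectors, 0.012 for chaperones, 0.087 for ERAD genes and 0.28 for the translocon group.

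Most of the 44 genes moved little, as did most genes on the arrays. In 38 of the 44 the 95% interval of the difference between lymphomas and premalignant cells lay within a 1.5-fold change in either direction. The same held for 16616 of all 19938 genes. All 4 lymphoma arrays lay above both premalignant arrays for 11 of the genes, against 12.7% of all genes, and below them for 3, against 16.1%. The counts of calls were sensitive to single arrays: without premalignant array 1, 3 ER genes were called higher and 1 lower, and without premalignant array 2 the counts were 2 and 0. With one lymphoma array left out, 4 genes were called higher without shEzh2.781 array 1 or shEzh2.556 array 2, and 3 without shEzh2.781 array 2. Fkbp11 and Mzb1 kept their call under each of the 14 other settings and left-out arrays.

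**Figure D1:**
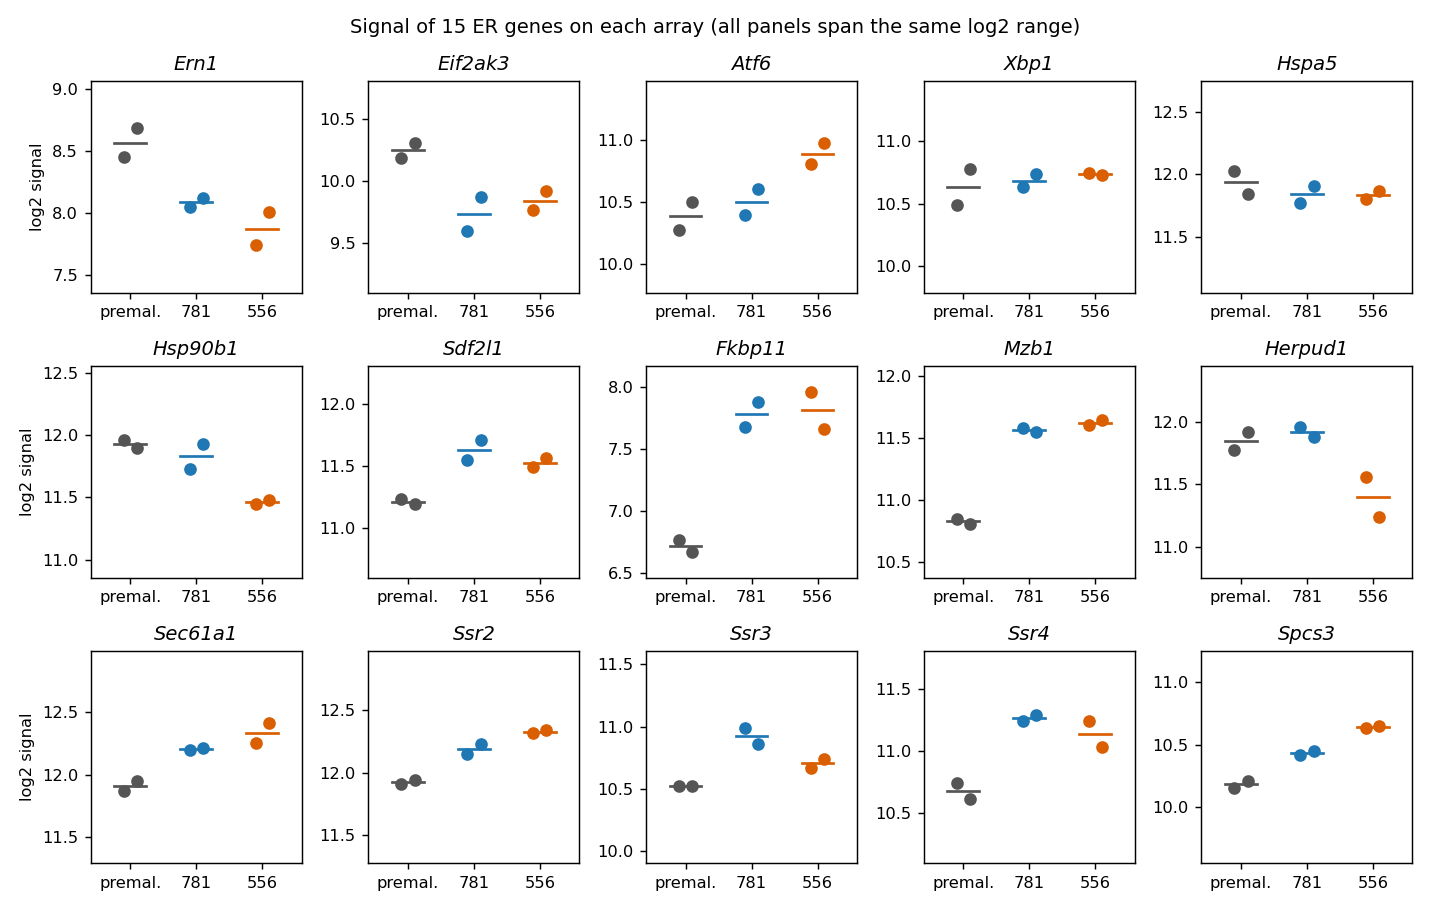
Signal of 15 ER genes on each of the 6 arrays, as log2 signal on the vertical axis, with premalignant cells in grey, shEzh2.781 lymphomas in blue and shEzh2.556 lymphomas in orange. Points are arrays and lines are group means, and every panel spans the same range, so that the step of Fkbp11 (from 6.77 and 6.67 to between 7.66 and 7.96) can be compared by eye with the level course of Hspa5.

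Among the sensors, the mRNAs of IRE1 and PERK fell in the lymphomas, while that of ATF6 did not. Ern1 encodes the kinase and endoribonuclease that splices Xbp1 mRNA. Its log2 signal was 8.45 and 8.68 on the premalignant arrays, 8.05 and 8.12 in shEzh2.781 lymphomas, and 7.74 and 8.01 in shEzh2.556 lymphomas. Every lymphoma array was below both premalignant arrays. The fall was 1.5-fold, a log2 difference of -0.58 ± 0.11 (SE; limma adjusted p = 0.00393), with -0.48 for shEzh2.781 (limma adjusted p = 0.0357) and -0.69 for shEzh2.556 (limma adjusted p = 0.00333). The shEzh2.781 call was lost without premalignant array 2 (limma adjusted p = 0.245), shEzh2.781 array 1 (0.138) or shEzh2.781 array 2 (0.0808), whereas the shEzh2.556 call held throughout. Without premalignant array 2 the difference over both hairpins was -0.47 with a limma adjusted p of 0.0699, the highest over all settings (0.0022 to 0.0699).

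Eif2ak3, which encodes PERK, the kinase that phosphorylates the translation factor eIF2α, read 10.19 and 10.31 in premalignant cells, 9.60 and 9.87 in shEzh2.781 lymphomas, and 9.77 and 9.92 in shEzh2.556 lymphomas. The groups again did not overlap. The log2 difference was -0.47 ± 0.11 (SE; limma adjusted p = 0.0133), a fall of 1.38-fold. It was -0.52 for shEzh2.781 (limma adjusted p = 0.0218) and -0.41 for shEzh2.556 (limma adjusted p = 0.0436). The pooled call rested on both premalignant arrays, since its limma adjusted p was 0.0502 without the first and 0.119 without the second (range over settings 0.00416 to 0.119). The shEzh2.781 call was lost without premalignant array 1 (limma adjusted p = 0.0544), premalignant array 2 (0.157) or shEzh2.781 array 1 (0.203), and the shEzh2.556 call without any one of the 4 arrays it compares (limma adjusted p from 0.0675 to 0.235).

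Atf6, the sensor that is cut in the Golgi to release a transcription factor, read 10.27 and 10.50 in premalignant cells, 10.39 and 10.60 in shEzh2.781 lymphomas, and 10.80 and 10.97 in shEzh2.556 lymphomas. Only the shEzh2.556 arrays stood clear of the premalignant ones. Atf6 rose in shEzh2.556 lymphomas by 0.50 ± 0.13 on the log2 scale (SE; limma adjusted p = 0.0194), and its difference in shEzh2.781 lymphomas was 0.11 (95% interval -0.18 to 0.39). The rise was not called without premalignant array 1 (log2 difference 0.39, limma adjusted p = 0.146) or without shEzh2.556 array 2 (0.42, limma adjusted p = 0.107), over a range of adjusted p from 0.00611 to 0.146. The difference between hairpins was -0.40 (shEzh2.781 minus shEzh2.556), with a limma adjusted p of 0.0713.

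The transcription factors downstream of the sensors were not called in any comparison. Xbp1 read 10.49 and 10.78 in premalignant cells, 10.63 and 10.74 in shEzh2.781 lymphomas, and 10.75 and 10.73 in shEzh2.556 lymphomas. The lymphoma values lay inside the premalignant range, with a log2 difference of 0.081 and a 95% interval of -0.16 to 0.32. A probe set summarises the gene as a whole, so spliced and unspliced Xbp1 mRNA were not told apart here. Atf4, the factor translated when PERK is active, read 9.07 and 9.15, then 9.21 and 9.08, then 8.87 and 8.82 in the same order of groups. Its shEzh2.556 arrays were the lowest, at a log2 difference of -0.26 from premalignant cells (limma adjusted p = 0.123). Ddit3, which encodes the stress factor CHOP, read 7.67 and 7.61, then 7.45 and 7.48, then 7.52 and 7.32. All 4 lymphoma arrays were below both premalignant arrays, but the log2 difference of -0.20 was not called (limma adjusted p = 0.244).

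Trib3 and Chac1, a pseudokinase and a glutathione-degrading enzyme that are induced by ATF4 and CHOP, were not called either. Trib3 read 6.50 and 6.80, then 6.75 and 6.76, then 7.04 and 6.91. Chac1 read 7.31 and 7.45, then 7.66 and 7.40, then 7.90 and 7.57. In both genes the shEzh2.556 arrays were above the premalignant ones, by a log2 mean of 0.33 for Trib3 (limma adjusted p = 0.0957) and 0.35 for Chac1 (limma adjusted p = 0.104). Trib3 passed the threshold in this comparison without premalignant array 2 (limma adjusted p = 0.0431).

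The major chaperones were level. Hspa5, the Hsp70 of the ER known as BiP, which binds unfolded chains and holds the sensors inactive, read 12.03 and 11.84 in premalignant cells, 11.77 and 11.91 in shEzh2.781 lymphomas, and 11.80 and 11.87 in shEzh2.556 lymphomas. These ranges overlap, and the log2 difference was -0.10 with a 95% interval of -0.32 to 0.13. The lectin chaperones that fold glycoproteins, calreticulin and calnexin, had a log2 difference of 0.031 for Calr (95% interval -0.20 to 0.27) and 0.12 for Canx (-0.09 to 0.34). The disulfide isomerase P4hb was above both premalignant arrays on all 4 lymphoma arrays (11.55 and 11.42, then 11.76 and 11.89, then 11.74 and 11.66), and its log2 difference of 0.28 was not called (limma adjusted p = 0.0895). The other isomerases Pdia3, Pdia4 and Pdia6, the cochaperones Dnajb9, Dnajb11 and Dnajc3, and Hyou1, Manf, Creld2 and Fkbp2 were not called in any comparison, at log2 differences over both hairpins between -0.21 and 0.16.

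Hsp90b1, the ER Hsp90 called GRP94, which folds integrins and Toll-like receptors, fell in the shEzh2.556 lymphomas. Its log2 signal was 11.96 and 11.90 in premalignant cells, 11.73 and 11.93 in shEzh2.781 lymphomas, and 11.45 and 11.48 in shEzh2.556 lymphomas. The shEzh2.556 arrays were below all 4 others. The log2 difference was -0.46 ± 0.12 for shEzh2.556 (SE; limma adjusted p = 0.0165) and -0.10 for shEzh2.781 (95% interval -0.35 to 0.15), and the difference between the hairpins missed the threshold (0.36, limma adjusted p = 0.0668). The shEzh2.556 call was lost without premalignant array 1 (limma adjusted p = 0.086), shEzh2.556 array 1 (0.0905) or shEzh2.556 array 2 (0.0563), with a range over settings of 0.00149 to 0.0905.

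Fkbp11, Mzb1 and Sdf2l1 were the folding factors that rose. Fkbp11 encodes an ER peptidyl-prolyl isomerase, an enzyme that turns proline bonds during folding, and is known for its high expression in secretory cells, plasma cells among them. It read 6.77 and 6.67 in premalignant cells, 7.68 and 7.88 in shEzh2.781 lymphomas, and 7.96 and 7.66 in shEzh2.556 lymphomas. The lymphoma arrays were all well above the premalignant ones and replicates differed by far less than the groups. The rise was 2.11-fold, a log2 difference of 1.08 ± 0.11 (SE; limma adjusted p = 5.94e-05), and was nearly the same for each hairpin (1.06 and 1.09). The difference between hairpins was -0.03, with a 95% interval of -0.32 to 0.26.

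Mzb1 encodes an ER cochaperone of GRP94 found in marginal zone B cells, B1 cells and plasma cells, where it aids antibody assembly. It read 10.85 and 10.81 in premalignant cells, 11.58 and 11.55 in shEzh2.781 lymphomas, and 11.60 and 11.64 in shEzh2.556 lymphomas. The 2 arrays of each group nearly coincided, and the lymphomas lay above the premalignant cells. The rise was 1.70-fold, a log2 difference of 0.76 ± 0.09 (SE; limma adjusted p = 0.000163), with 0.73 for shEzh2.781 and 0.79 for shEzh2.556. Hsp90b1, whose protein is the partner of MZB1, did not share this rise, as given above.

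Sdf2l1, which works with BiP and the ER cochaperone ERdj3, read 11.23 and 11.19 in premalignant cells, 11.55 and 11.71 in shEzh2.781 lymphomas, and 11.49 and 11.56 in shEzh2.556 lymphomas. The groups did not overlap, and the log2 difference was 0.37 ± 0.10 (SE; limma adjusted p = 0.0245). The call held for shEzh2.781 (0.42, limma adjusted p = 0.0341) and not for shEzh2.556 (0.31, limma adjusted p = 0.0757). The pooled call was lost without premalignant array 1 (0.0917), premalignant array 2 (0.121) or the second array of either hairpin (0.0876 for shEzh2.781 and 0.0572 for shEzh2.556), with limma adjusted p from 0.0032 to 0.121 over all settings. The shEzh2.781 call was lost without any one of the 4 arrays it compares (limma adjusted p from 0.061 to 0.288).

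The promoters of the 44 genes were read to set these values beside the sequence through which the ER stress factors act. RefSeq promoter windows (mouse build GRCm38.p6, from 250 bases before to 50 bases after the start) were held for 36 of the genes. Atf6, Hyou1, Manf, Mzb1, Derl1, Sec61a1, Ssr2 and Spcs3 had no window and were not searched. The ER stress response element (ERSE) was searched on both strands as CCAAT and CCACG with 9 bases of any kind between them. In this element the left end is known to bind NF-Y and the right end ATF6 or XBP1. It was found in 9 of the 36 genes (25.0%), compared with 37 of 27025 genes (0.137%) and 0.119% of all windows of this length. The 44 genes were listed as parts of the system that this element serves. This share and those of the other motifs are therefore descriptions, and no enrichment was tested. The 10 elements are shown with 10 bases on either side, each read in the direction in which the element runs forward, with the element in capitals. They come from chr8:84847065-84847103 (Calr), chr11:50325790-50325828 (Canx), chr15:88819510-88819548 (Creld2), chr10:75893232-75893270 (Derl3), chr14:118937817-118937855 (Dnajc3), chr10:86705628-86705666 and chr10:86705523-86705561 (Hsp90b1), chr2:34772015-34772053 (Hspa5), chr12:17266481-17266519 (Pdia6) and chr19:6046522-6046560 (Syvn1), on the minus strand for Canx, Creld2, Derl3 and the first Hsp90b1 element and on the plus strand for the others.
Calr: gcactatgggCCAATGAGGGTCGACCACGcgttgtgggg
Canx: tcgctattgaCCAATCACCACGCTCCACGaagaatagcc
Creld2: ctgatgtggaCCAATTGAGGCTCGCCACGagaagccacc
Derl3: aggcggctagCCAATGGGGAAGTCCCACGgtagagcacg
Dnajc3: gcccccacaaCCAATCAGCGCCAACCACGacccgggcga
Hsp90b1, first: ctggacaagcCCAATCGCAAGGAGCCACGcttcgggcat
Hsp90b1, second: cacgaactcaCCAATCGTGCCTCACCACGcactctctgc
Hspa5: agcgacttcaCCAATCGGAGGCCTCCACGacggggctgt
Pdia6: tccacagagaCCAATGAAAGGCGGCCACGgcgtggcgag
Syvn1: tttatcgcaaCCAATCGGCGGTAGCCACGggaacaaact

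The elements sat upstream of the start, with the near end between 26 bases (Syvn1) and 194 bases (the first Hsp90b1 element) before it. Chaperones and folding enzymes held a match in 7 of 15 genes with a window and ERAD genes in 2 of 7, whereas sensors and effectors (0 of 7) and translocon genes (0 of 7) held none. The 250 bases before the start of Hspa5 (chr2:34771840-34772089, plus strand) and Hsp90b1 (chr10:86705445-86705694, minus strand) show where the matches lie, in capitals, in a level gene and in one that fell with shEzh2.556. The same stretch of Fkbp11 (chr15:98728199-98728448, minus strand, the farther upstream of its 2 windows) is printed as the gene with the greatest rise of the 44, and neither of its windows held any motif searched.
Hspa5: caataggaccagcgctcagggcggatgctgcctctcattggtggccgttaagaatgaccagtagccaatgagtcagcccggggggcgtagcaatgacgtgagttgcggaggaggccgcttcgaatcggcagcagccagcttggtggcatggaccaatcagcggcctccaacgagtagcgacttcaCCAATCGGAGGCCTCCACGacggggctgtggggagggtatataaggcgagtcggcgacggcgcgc
Hsp90b1: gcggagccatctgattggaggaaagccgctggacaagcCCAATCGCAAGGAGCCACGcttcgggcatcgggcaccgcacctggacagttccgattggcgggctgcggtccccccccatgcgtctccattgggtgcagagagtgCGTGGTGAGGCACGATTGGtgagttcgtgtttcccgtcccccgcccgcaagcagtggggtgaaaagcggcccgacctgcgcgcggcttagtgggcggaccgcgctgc
Fkbp11: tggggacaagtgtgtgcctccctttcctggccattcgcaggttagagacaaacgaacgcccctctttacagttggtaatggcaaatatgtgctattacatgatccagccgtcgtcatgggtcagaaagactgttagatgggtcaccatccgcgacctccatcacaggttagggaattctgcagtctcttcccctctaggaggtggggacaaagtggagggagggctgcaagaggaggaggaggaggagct

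None of the 9 genes with an ERSE was called between the lymphomas of both hairpins and premalignant cells, against 15.2% of all genes called in either direction, so a count of 0 among 9 is near the background. Their log2 differences ran from -0.28 (Hsp90b1) to 0.16 (Pdia6) with a median of -0.02. The 95% interval of all 9 lay within a 1.5-fold change, as for 16616 of all 19938 genes. Of the 27 genes with a window and no ERSE, 3 rose and 2 fell (5.6% and 9.61% of all genes), with a median of 0.093. Against premalignant cells, none of the 9 was called with shEzh2.781 (10.8% of all genes in either direction). With shEzh2.556 1 was called, Hsp90b1 (18.2% of all genes), so these counts are near the background too. A match is a stretch of letters and not a measured binding site. Only the exact letters were searched, so a variant of the element inside a window was not counted. A window without a match also says nothing about sites elsewhere.

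**Figure D2:**
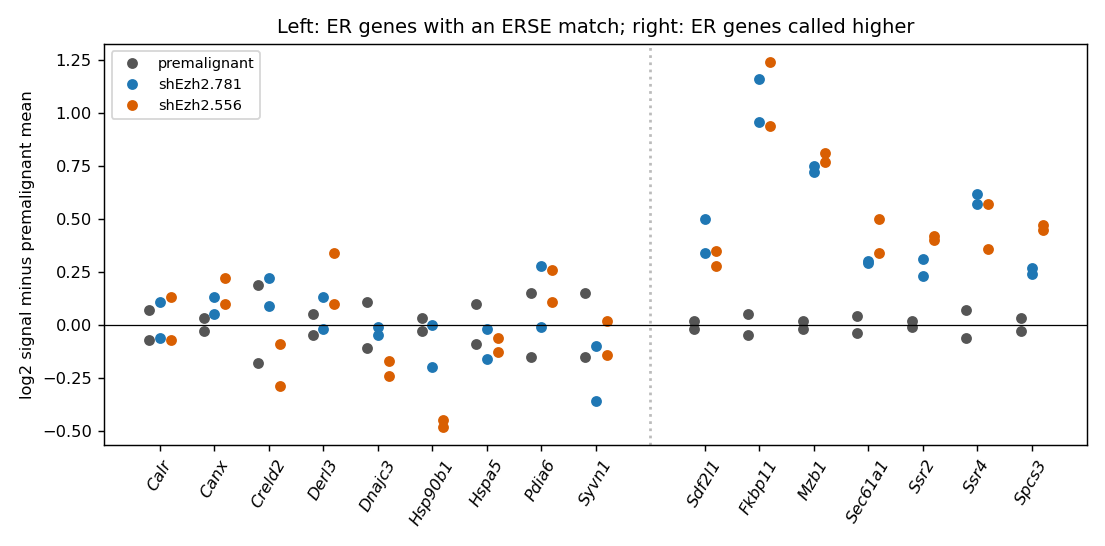
Log2 signal minus the premalignant mean on each array, for the 9 ER genes with an ERSE match (left of the dotted line) and the 7 ER genes called higher in the lymphomas (right), with premalignant arrays in grey, shEzh2.781 in blue and shEzh2.556 in orange. Genes on the right were drawn because they were called, so their height is a description. Of these 7, only Fkbp11, Sdf2l1 and Ssr4 had a promoter window, and the others were not searched for an ERSE. On the left, only the shEzh2.556 arrays of Hsp90b1 lie more than 0.40 from 0.

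Other elements were rarer among the genes. ERSE-II (ATTGG and CCACG with 1 base of any kind between them, on either strand) was found in Dnajb11 and Herpud1, which is 5.56% of the 36 genes against 0.0444% of all genes. The core letters of the XBP1 site (CCACGTC) were found in Pdia6, Sec63 and Ssr1 (8.33% against 2.73%). The C/EBP-ATF response element (TGATGCAA), through which ATF4 is known to act, was found in Chac1 and Herpud1 (5.56% against 1.03%). These motifs share the letters CCACG with the ERSE, except for the C/EBP-ATF element, but none of the matches overlapped an ERSE match. Herpud1 thus held an ERSE-II and a C/EBP-ATF element in the same window.

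The ERAD genes were level with 1 exception. Herpud1, a membrane protein that gathers the ubiquitin ligase complex of ERAD, read 11.78 and 11.92 in premalignant cells, 11.96 and 11.88 in shEzh2.781 lymphomas, and 11.56 and 11.24 in shEzh2.556 lymphomas. The shEzh2.781 arrays lay with the premalignant ones and the shEzh2.556 arrays lay below both. The log2 difference from premalignant cells was -0.45 ± 0.13 for shEzh2.556 (SE; limma adjusted p = 0.0322) and 0.071 for shEzh2.781 (95% interval -0.21 to 0.36). Leaving out premalignant array 1 (limma adjusted p = 0.074), premalignant array 2 (0.123) or shEzh2.556 array 2 (0.183) ended the shEzh2.556 call, within a range of 0.00584 to 0.183.

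Sel1l, the adaptor of the ERAD ligase, read 10.07 and 10.14 in premalignant cells, 10.40 and 10.47 in shEzh2.781 lymphomas, and 10.19 and 10.35 in shEzh2.556 lymphomas. All lymphoma arrays were higher, though the log2 difference of 0.24 was not called (limma adjusted p = 0.134). The ligase itself, Syvn1 (also called HRD1), overlapped between groups at -0.14 (95% interval -0.41 to 0.12). The mannosidase-like Edem1 and Edem2, which mark misfolded glycoproteins, and the retrotranslocation factors Derl1, Derl2 and Derl3 were not called in any comparison, at pooled log2 differences between -0.10 and 0.23. For all 8 ERAD genes the 95% interval of the pooled difference lay within a 1.5-fold change, as for 16616 of all 19938 genes.

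In the translocon group 4 of 10 genes were called higher in the pooled comparison, against 5.6% of all genes. No difference from the other roles was tested. Except for that of Ssr4, these calls lay near the threshold, as given below. Ssr4, the delta subunit of the translocon-associated protein complex, read 10.74 and 10.61 in premalignant cells, 11.24 and 11.29 in shEzh2.781 lymphomas, and 11.24 and 11.03 in shEzh2.556 lymphomas. The groups were clearly apart. Its rise was 1.44-fold, a log2 difference of 0.53 ± 0.10 (SE; limma adjusted p = 0.00414), and was called for both hairpins (0.59 and 0.46). Without premalignant array 2 the limma adjusted p was 0.0596, the highest of its range (0.000495 to 0.0596). The shEzh2.781 call was also lost without that array (limma adjusted p = 0.0704), and the shEzh2.556 call without that array (0.0854) or shEzh2.556 array 1 (0.154).

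Sec61a1, the pore-forming subunit of the translocation channel, read 11.87 and 11.95 in premalignant cells, 12.20 and 12.21 in shEzh2.781 lymphomas, and 12.25 and 12.41 in shEzh2.556 lymphomas. Ssr2, the beta subunit of the translocon-associated complex, read 11.91 and 11.94, then 12.15 and 12.23, then 12.32 and 12.34. Spcs3, a subunit of the signal peptidase that cuts off signal peptides, read 10.15 and 10.21, then 10.42 and 10.45, then 10.63 and 10.65. In these 3 genes every lymphoma array was above both premalignant arrays, and replicates lay close together. The log2 differences were 0.35 for Sec61a1 (limma adjusted p = 0.0295), 0.34 for Ssr2 (0.0308) and 0.36 for Spcs3 (0.0212), each with an SE of 0.10 or 0.09. Each was called for shEzh2.556 (0.42, 0.40 and 0.46) and none for shEzh2.781 (0.29, 0.27 and 0.26).

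These 3 calls lay near the threshold. Sec61a1 lost its pooled call without premalignant array 1 (limma adjusted p = 0.163), premalignant array 2 (0.0884), either shEzh2.781 array (0.0626 and 0.0682) or shEzh2.556 array 2 (0.0736). Ssr2 lost it without any one of the 6 arrays (limma adjusted p from 0.0562 to 0.135), and Spcs3 without premalignant array 1 (0.114), premalignant array 2 (0.0747) or either shEzh2.781 array (0.0502 and 0.0601). The shEzh2.556 calls were lost for Sec61a1 without premalignant array 1 (0.117), premalignant array 2 (0.0518) or shEzh2.556 array 2 (0.123), for Ssr2 without any one of the 4 arrays compared (0.0577 to 0.0945), and for Spcs3 without premalignant array 1 (0.0595) or either shEzh2.556 array (0.0537 and 0.0516). Over all settings the pooled limma adjusted p ran from 0.00192 to 0.163 for Sec61a1, from 0.00165 to 0.135 for Ssr2 and from 0.00738 to 0.122 for Spcs3. The log2 difference itself stayed within 0.31 to 0.39 for Sec61a1, 0.32 to 0.36 for Ssr2 and 0.33 to 0.40 for Spcs3.

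Ssr3, the gamma subunit, rose in shEzh2.781 lymphomas. It read 10.52 on both premalignant arrays, 10.99 and 10.86 in shEzh2.781 lymphomas, and 10.67 and 10.74 in shEzh2.556 lymphomas. The log2 difference was 0.40 for shEzh2.781 (limma adjusted p = 0.0383) and 0.18 for shEzh2.556 (limma adjusted p = 0.261), and the difference between hairpins was 0.22 (limma adjusted p = 0.197). The shEzh2.781 call was lost without any one of the 4 arrays it compares, with limma adjusted p between 0.086 and 0.277. Ssr1, Sec63, Spcs1 and Spcs2 were not called, at pooled log2 differences of 0.037, 0.12, 0.27 and 0.10.

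Sec61b, the beta subunit of the channel, could not be placed, because its replicates disagreed. It read 10.69 and 9.36 in premalignant cells, 10.06 and 10.09 in shEzh2.781 lymphomas, and 10.09 and 9.42 in shEzh2.556 lymphomas. The premalignant gap of 1.33 was among the widest of all genes, and the shEzh2.556 gap of 0.66 wider than that of 99.4%. All 3 of its probe sets put premalignant array 1 above premalignant array 2. Its log2 difference of -0.11 (95% interval -0.73 to 0.51) became 0.55 without premalignant array 1. For shEzh2.556 alone it was -0.27 and not called, but -0.93 and called lower without premalignant array 2 (limma adjusted p = 0.0319).

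**Figure D3:**
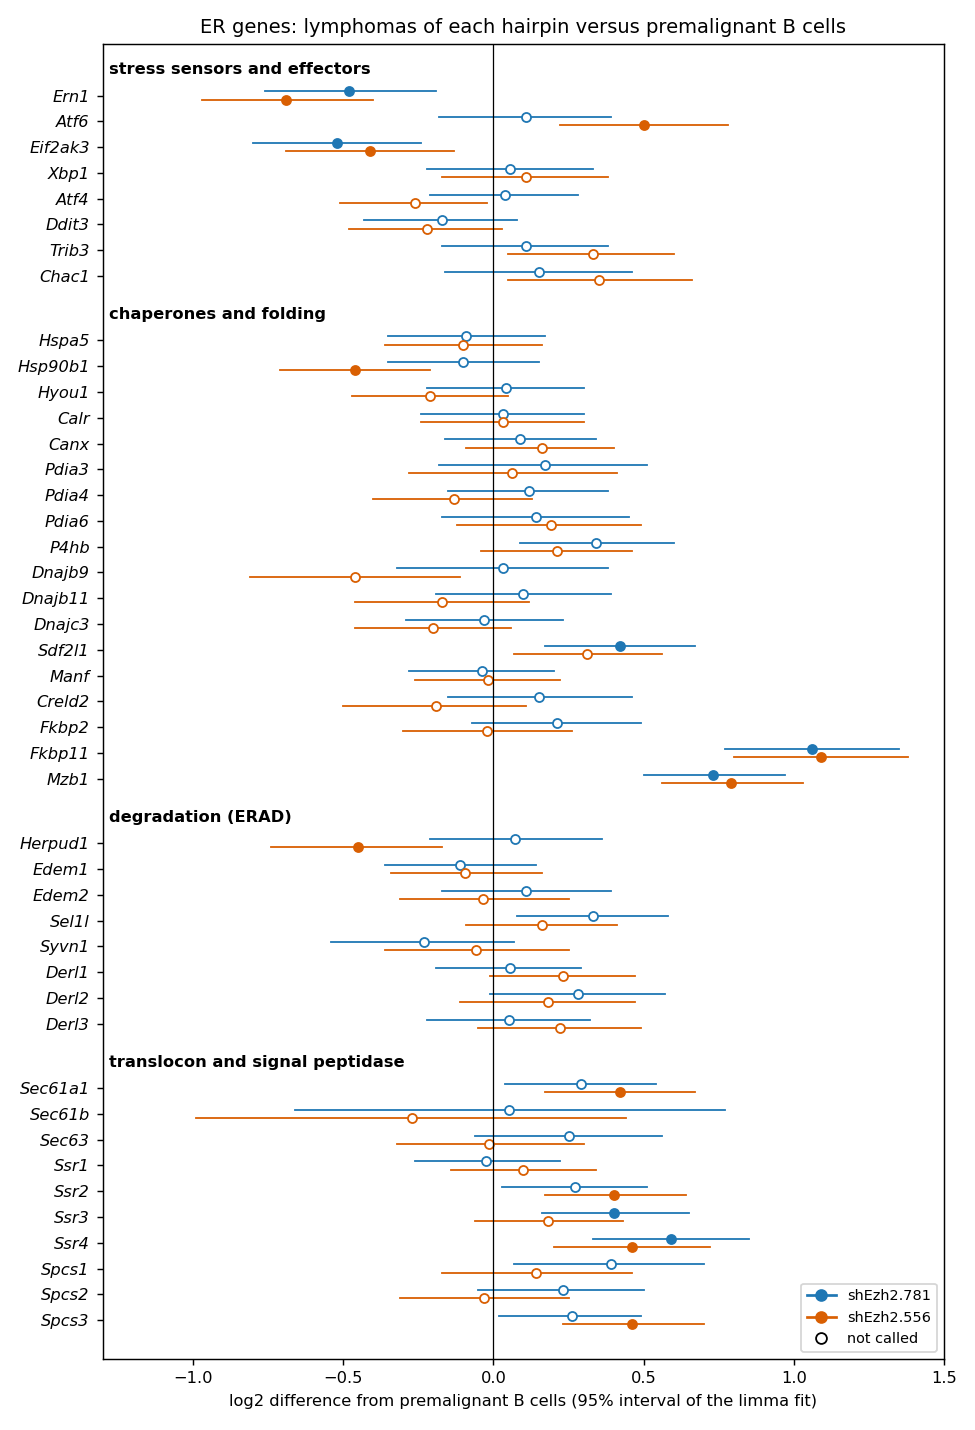
Log2 difference from premalignant B cells for all 44 ER genes, by role, with shEzh2.781 lymphomas in blue and shEzh2.556 lymphomas in orange; lines are 95% intervals of the limma fit, filled points passed the threshold and open points did not. Fkbp11 and Mzb1 stand to the right of all other genes for both hairpins; Eif2ak3 (-0.52) and Ern1 (-0.48) stand furthest left for shEzh2.781, while for shEzh2.556 Ern1 (-0.69) is furthest left and Hsp90b1, Dnajb9 and Herpud1 lie left of Eif2ak3 (-0.41), and the translocon genes lie mostly to the right of 0.

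Each hairpin was also compared with premalignant cells alone, in comparisons that share the premalignant arrays. With shEzh2.781, 5 of the 44 genes were called higher (4.6% of all genes) and 2 lower (6.24% of all genes). With shEzh2.556, 7 were called higher (6.8% of all genes) and 4 lower (11.4% of all genes). Both shEzh2.781 arrays lay above both premalignant arrays for 15 of the 44 genes (22.0% of all genes) and below them for 4 (28.6%). Both shEzh2.556 arrays lay above for 17 (35.8%) and below for 10 (26.5%). Fkbp11, Mzb1 and Ssr4 were called higher for both hairpins and Ern1 and Eif2ak3 lower for both. Sdf2l1 and Ssr3 were called higher for shEzh2.781 only, Atf6, Sec61a1, Ssr2 and Spcs3 higher for shEzh2.556 only, and Hsp90b1 and Herpud1 lower for shEzh2.556 only. These lists differ by the threshold, and only the direct comparison of the hairpins tests a difference.

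In that direct comparison 1 of the 44 genes was called higher in shEzh2.781 lymphomas (5.5% of all genes) and none lower (4.53% of all genes). The called gene was Herpud1, at 0.52 ± 0.13 (SE; limma adjusted p = 0.0294), or 1.44-fold higher in shEzh2.781 than in shEzh2.556 lymphomas. The call was lost without shEzh2.781 array 1 (limma adjusted p = 0.0996), shEzh2.781 array 2 (0.0554) or shEzh2.556 array 2 (0.135), with a range over settings of 0.00518 to 0.135. At an unadjusted limma p under 0.05, 6 of the 44 genes differed between hairpins, against 6189 of all 19938 genes. Both shEzh2.781 arrays lay above both shEzh2.556 arrays for 19 of the 44 genes (25.0% of all genes) and below them for 8 (40.1%). Of the other genes, Dnajb9, the BiP cochaperone ERdj4, read 9.14 and 9.56 in premalignant cells, 9.47 and 9.30 in shEzh2.781 lymphomas, and 8.72 and 9.05 in shEzh2.556 lymphomas. Its hairpin difference of 0.50 missed the threshold (limma adjusted p = 0.0688). Its difference of -0.46 between shEzh2.556 lymphomas and premalignant cells was not called (limma adjusted p = 0.0661), though it passed without premalignant array 1 (0.0344) or either shEzh2.781 array (0.0372), over a range of 0.0344 to 0.379.

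The deposited arrays differed slightly in their medians, and centring each array on its median moved the median of all genes between hairpins from -0.071 to 0.044. With centring, 4 of the 44 genes were called higher in shEzh2.781 than in shEzh2.556 lymphomas, which added Atf4, Dnajb9 and Hsp90b1 to Herpud1. Over all genes the calls between hairpins were 1097 higher and 903 lower as deposited, and 1913 higher and 405 lower after centring. For shEzh2.781 against premalignant cells they were 917 higher and 1244 lower as deposited and 1206 higher and 894 lower after centring. Ern1 and Eif2ak3 were then no longer called for shEzh2.781 (log2 differences -0.39 and -0.43, limma adjusted p = 0.0776 and 0.0568).

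Other genes of the same pathways were taken from 6 lists that hold none of the 44. Of these 116 measured genes, 14 rose (12.1%) and 9 fell (7.76%) in the lymphomas of both hairpins, against 5.6% and 9.61% of all genes, with a median log2 difference of 0.071 against 0.025 over all genes. These shares also apply to the counts of the single lists, several of which lie near them. Among 24 other targeting, translocon and oligosaccharyltransferase genes 3 rose and none fell, with a median of 0.16. The 3 were Krtcap2 (0.45, limma adjusted p = 0.0124), Ostc (0.42, limma adjusted p = 0.0126) and Tusc3 (0.45, limma adjusted p = 0.0241), which are all subunits of the oligosaccharyltransferase that attaches N-linked sugars at the translocon. Krtcap2 lost its call without premalignant array 1 (limma adjusted p = 0.0706) or 2 (0.0884), Ostc without premalignant array 1 (0.107), and Tusc3 without premalignant array 2 (0.23) or shEzh2.556 array 1 (0.068). Over all settings the limma adjusted p reached 0.0884, 0.107 and 0.23 at most, and 0.00107, 0.00114 and 0.0091 at least.

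Among 20 other folding and glycan-trimming genes 5 rose and 2 fell, with a median of 0.19. The thioredoxin-domain isomerase Txndc5 rose from 10.17 and 10.08 to between 10.52 and 10.87 on the lymphoma arrays (log2 difference 0.60, limma adjusted p = 0.00197). Mogs, the glucosidase that trims the first glucose from new glycans, rose from 9.51 and 9.53 to between 9.96 and 10.11 (0.52, limma adjusted p = 0.00242). Txndc11, another thioredoxin-domain protein, fell from 9.49 and 9.79 to between 8.68 and 9.11 (-0.74, limma adjusted p = 0.00116). The oxidase Ero1b, which reoxidises disulfide isomerases, fell from 8.85 and 8.77 to between 7.78 and 8.38 (-0.64, limma adjusted p = 0.00393). The related oxidase Ero1a went the other way, from 10.16 and 10.14 to between 10.55 and 10.78 (0.49, limma adjusted p = 0.00672). The folding enzymes of this list thus moved in both directions. Ero1b was not called without premalignant array 1 (log2 difference -0.60) or with lymphomas as one group (limma adjusted p = 0.0678). Ero1a was not called without premalignant array 2 (0.48). Txndc5, Mogs and Txndc11 kept their call in every setting tried.

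Among 17 other ERAD genes none rose and 2 fell (11.8%, near the 9.61% of all genes called lower), with a median of -0.061. These were the ER ubiquitin-conjugating enzyme Ube2j1 (-0.48, limma adjusted p = 0.00516) and the mannosidase Edem3 (-0.35, limma adjusted p = 0.0248). Edem3 lost its call without any one array except shEzh2.556 array 2 (limma adjusted p from 0.0596 to 0.104), and Ube2j1 kept it in every setting tried.

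Among 14 other regulators of the unfolded protein response 1 rose and 2 fell, with a median of -0.013. Wfs1, an ER membrane protein that restrains ATF6, fell by 0.39 on the log2 scale (limma adjusted p = 0.0271). Eif2ak4, the amino acid sensor GCN2 that phosphorylates eIF2α as PERK does, rose by 0.42 over both hairpins (limma adjusted p = 0.0154). Its rise was called for shEzh2.556 (0.63, limma adjusted p = 0.00301) and not for shEzh2.781 (0.21, limma adjusted p = 0.358). Creb3l2, an ATF6-like factor of secretory cells, fell by 0.52 over both hairpins (limma adjusted p = 0.0138), but its arrays read 7.37 and 7.66 in premalignant cells, 7.41 and 7.77 in shEzh2.781 lymphomas, and 6.34 and 6.45 in shEzh2.556 lymphomas. Its fall lay in the shEzh2.556 lymphomas, and the hairpins differed by 1.20 (limma adjusted p = 0.000508), a call kept in every setting tried. Its pooled call was lost without premalignant array 2 (limma adjusted p = 0.162). Wfs1 lost its call without premalignant array 2 (0.199) or the first array of either hairpin (0.0732 for shEzh2.781 and 0.0773 for shEzh2.556), and Eif2ak4 without premalignant array 1 (0.0869), premalignant array 2 (0.0882) or shEzh2.781 array 2 (0.0525). Over all settings the pooled limma adjusted p ran from 0.00147 to 0.558 for Creb3l2, from 0.0238 to 0.199 for Wfs1 and from 0.00722 to 0.219 for Eif2ak4.

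**Figure D4:**
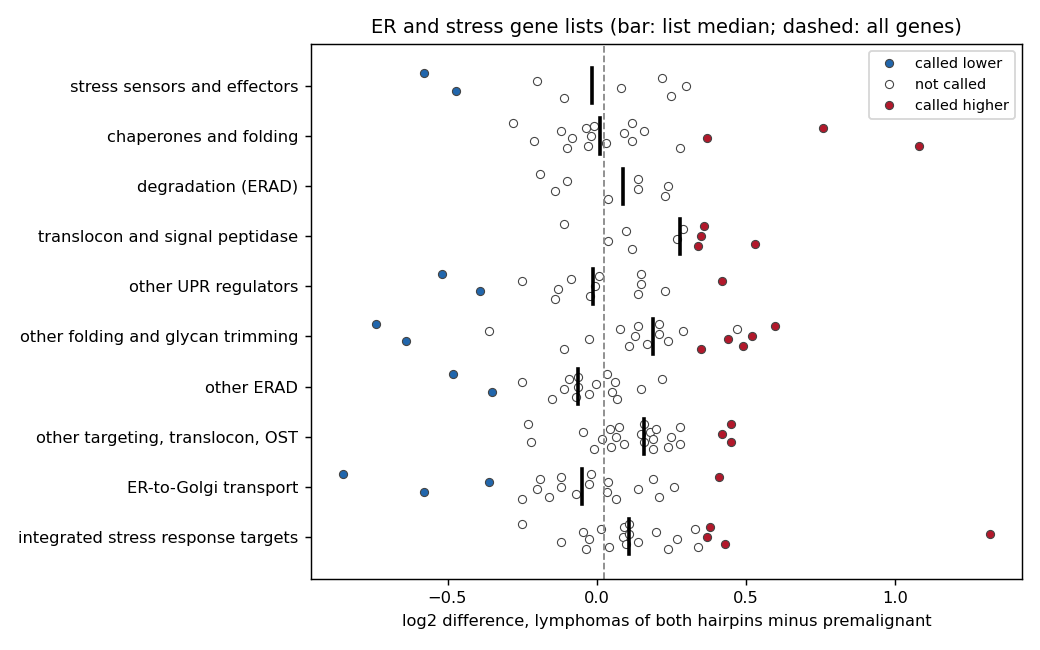
Log2 difference between lymphomas of both hairpins and premalignant B cells for the 44 ER genes in 4 roles (upper 4 lines) and for 6 further lists of secretory and stress genes (lower 6 lines). Points are genes, filled in red where called higher and in blue where called lower; bars are list medians and the dashed line is the median of all genes (0.025), to the right of which the translocon lists have their medians (0.28 and 0.16).

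The hairpins and the cell type were checked on the same arrays. Ezh2 fell from 12.64 and 12.70 in premalignant cells to 10.92 and 11.07 in shEzh2.781 lymphomas and 11.20 and 11.30 in shEzh2.556 lymphomas, a log2 difference of -1.55 (limma adjusted p = 1.31e-06). Myc was level at 0.14 (limma adjusted p = 0.402). The 9 measured B cell identity genes were bright in every group, and the dimmest group mean was 10.53 (log2). In the lymphomas of both hairpins 3 of the 9 fell (9.61% of all genes) and 1 rose (5.6%), with a median log2 difference of -0.19. The B lineage factors Pax5 and Ebf1 fell by 0.44 and 0.49 (limma adjusted p = 0.00936 and 0.00566), the signalling adaptor Blnk fell by 0.48 (limma adjusted p = 0.0121), and the surface receptor Cd22 rose by 0.55 (limma adjusted p = 0.00309); these 4 were named after their values were seen. The 3 falls lost their call without premalignant array 2 (limma adjusted p = 0.0844, 0.0537 and 0.127). Of 12 plasma cell genes 1 rose (5.6% of all genes) and 6 fell (9.61%), with a median log2 difference of -0.34. Among them Sdc1, the plasma cell surface marker CD138, fell by 0.84 (limma adjusted p = 0.00358) and Slamf7 fell by 1.07 (limma adjusted p = 2.2e-05). Prdm1, the factor that drives plasma cell fate, fell by 0.43 (limma adjusted p = 0.0256). It was the dimmest of the 12 in each group, at 6.32 in premalignant cells, 5.85 in shEzh2.781 and 5.93 in shEzh2.556 lymphomas (log2). These means lay below the median over all genes of every array (7.02 to 7.18). The summed linear signal of the 12 plasma cell genes was 15835 to 17677 in premalignant cells, 14510 to 15555 in shEzh2.781 lymphomas and 11717 to 12013 in shEzh2.556 lymphomas. In shEzh2.781 lymphomas 3 of the 12 plasma cell genes were called lower and 1 higher (6.24% and 4.6% of all genes). In shEzh2.556 lymphomas 6 were called lower and 1 higher (11.4% and 6.8% of all genes). Fkbp11 and Mzb1 are both abundant in plasma cells, and the part of plasma cells in their rise was not tested. Over both hairpins, Prdm1 was no longer called without premalignant array 2 or shEzh2.556 array 2 (log2 differences -0.27 and -0.38). Sdc1 was no longer called over both hairpins without premalignant array 2 (-0.57).

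Genes of other cell types differed between groups too. Over all genes, 5.6% were called higher and 9.61% lower in the lymphomas of both hairpins. With shEzh2.556 alone 6.8% were called higher, and with shEzh2.781 alone 4.6%. Of 16 neutrophil genes 15 fell and none rose in the lymphomas of both hairpins, and their summed linear signal was 11025 to 12845 in premalignant cells, 4374 to 7111 in shEzh2.781 lymphomas and 1368 to 2091 in shEzh2.556 lymphomas. Of 18 salivary secretory genes 13 rose and none fell in shEzh2.556 lymphomas. In shEzh2.781 lymphomas 5 rose and 1 fell, and over both hairpins 9 rose and 1 fell. Their summed signal was 13421 to 19167 in shEzh2.556 lymphomas, against 1234 to 1467 in premalignant cells and 1725 to 1961 in shEzh2.781 lymphomas. The erythroid sum over 8 genes was 5078 to 5629, 3189 to 3619 and 4342 to 5306 in the same order, with 3 genes called lower. Of 12 macrophage, 10 dendritic and 11 T and NK cell genes, 1, 3 and 5 fell and 3, 1 and 0 rose. The dimmest group mean among them was 3.49 (log2) for the T cell gene Trat1, and the lowest value on the arrays was 2.3. A lower level in bulk cells can mean fewer cells of a type or less RNA per cell, which cannot be told apart here. Since neutrophils and gland cells also express ER genes, the part of these cells in the differences reported for the ER genes was not tested.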

How the data were processed

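Total RNA of 6 samples was hybridised to 1-colour Affymetrix arrays. The authors deposited normalized log2 values, 1 per probe set, from 2.3 to 14.22. That they are on a log2 scale was judged from their range. How they were normalized and summarized is not given in the sources used here. Medians of single arrays were 6.75 to 6.91. The platform annotation pairs 21789 of the 35512 probe sets with 1 symbol, 1621 with several and 12102 with none, and only the first kind was named. The probe set with the highest mean over the 6 arrays stood for a gene (41 of the 44 genes had 1), which gave 19938 genes.

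All 3 groups were fitted together in limma 3.58.1 (R 4.3.3; lmFit and eBayes, 3 residual and 8.51 prior degrees of freedom, no covariates), with Benjamini-Hochberg adjustment over all genes. With 2 arrays a group, the number of arrays limits the precision. In simulated data for the pooled comparison (19938 genes), log2 changes of 0.5, 1 and 2 were recovered in 39.4%, 99.3% and 100% of cases. Of the calls made there, 5.06% were false. Far fewer genes were changed in the simulation than the 3033 called on the real arrays. The adjustment was therefore stricter there, and the recovery of small changes does not carry over to the real arrays. Summaries, promoter searches and figures used matplotlib 3.10.9, numpy 2.4.6 and pandas 2.3.3 under Python 3.11.15, and promoters are those of RefSeq.

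The 44 genes and all lists were chosen with earlier results of these data known. Genes called or with arrays apart, and the sensors and their factors, were given with values. Up to 4 called genes with the smallest p per pathway list and comparison, and up to 3 genes per marker list, were named, besides marker genes said to be named after their values were seen. The alternatives were quantile normalization, median centring, leaving out low genes, an intensity trend, fitting only the groups compared, a replicate block, the mean of probe sets, lymphomas as one group, all probe sets, and each array left out.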

Additional observations from a re-analysis of the deposited data

Results flagged for a closer look

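The effect relative to premalignant cells differed between the hairpins, by the direct limma comparison of shEzh2.781 with shEzh2.556 lymphomas, for 1 of the 44 ER genes, 8 of the 116 other pathway genes (4 higher and 4 lower in shEzh2.781) and 5 of the 12 plasma cell genes (4 higher and 1 lower), against 5.5% of all genes higher and 4.53% lower. Every log2 difference is shEzh2.781 minus shEzh2.556. Herpud1 differed by 0.52. The ATF6-like factors differed in opposite directions, Creb3l2 by 1.20 and Creb3l1 by -0.74. Creb3l1 read 6.65 and 6.87 in premalignant cells, 6.52 and 6.54 in shEzh2.781 lymphomas and 7.38 and 7.17 in shEzh2.556 lymphomas. A kinase and a phosphatase subunit that act on eIF2α differed by less, Eif2ak4 (GCN2) by -0.43 and Ppp1r15b by 0.39. Both calls were lost without any one array, at log2 differences from -0.54 to -0.32 for Eif2ak4 and from 0.32 to 0.47 for Ppp1r15b. With the mean of the probe sets of each gene, the Ppp1r15b difference was only 0.08 (limma adjusted p = 0.655).

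The stress factors Atf3 and Nupr1 each differed by -0.80 and were higher in shEzh2.556 lymphomas, and both calls were lost without shEzh2.556 array 1 (limma adjusted p = 0.138 and 0.114). The disulfide isomerase Pdia5 differed by 1.01, a call lost without shEzh2.556 array 1 (limma adjusted p = 0.0701). The mannosidase Man1b1 differed by 0.54, a call lost without shEzh2.781 array 1 (0.0617) or shEzh2.556 array 1 (0.0886).

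The 12 plasma cell genes ranged from -0.99 to 1.08, with a median of 0.15. The secretory cell factor Bhlha15 differed by 1.08, Slamf7 by 0.92, the transcription factor Irf4 by 0.74 and Sdc1 by 0.71, all higher in shEzh2.781 lymphomas. The elongation factor Ell2 differed by -0.99 and was higher in shEzh2.556 lymphomas. Bhlha15, Irf4 and Ell2 were named after their values were seen. With 1 array left out, Bhlha15, Slamf7, Irf4 and Ell2 kept their call in each case. Sdc1 lost it without shEzh2.781 array 1 (limma adjusted p = 0.101), shEzh2.556 array 1 (0.0607) or shEzh2.556 array 2 (0.148). No group was large enough to test for single arrays that stand apart.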

How the results depend on the processing

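Counts of called ER genes moved with the settings, and no called gene changed sign. For both hairpins pooled, 7 genes higher became 10 with quantile normalization (adding P4hb, Sel1l and Ssr3), 10 with an intensity trend (adding Atf6, P4hb and Ssr3), 8 with low genes left out (adding Ssr3), 3 with lymphomas as one group and 3 with all 35512 probe sets tested. The 2 lower became 3 with the trend (adding Hsp90b1), 1 with lymphomas as one group and 1 with all probe sets; with 1 array left out they ranged from 2 to 6 and from 0 to 2. For shEzh2.781, 5 higher became 8 with an intensity trend and 2 with all probe sets, and 2 lower became 0 with median centring and 0 with all probe sets; with 1 array left out they ranged from 2 to 5 and from 0 to 2. For shEzh2.556, 7 higher became 3 with all probe sets, and 4 lower became 2 with quantile normalization and 1 with all probe sets; with 1 array left out they ranged from 3 to 7 and from 1 to 5. Between hairpins, 1 higher became 0 with quantile normalization, 4 with median centring, 2 with an intensity trend and 0 with all probe sets, and 0 lower became 1 with the trend; with 1 array left out they ranged from 0 to 1 and from 0 to 0. Where a group was left with 1 array, that array was assumed to vary like the other groups. The cause of these changes was not tested.

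All genes called for both hairpins numbered 1117 higher and 1916 lower, and 409 and 682 with lymphomas as one group. With all probe sets tested they numbered 769 and 1693. For shEzh2.781 they were 490 and 757, for shEzh2.556 785 and 1926, and between hairpins 205 and 112. Over all named genes, comparisons and settings, the result stayed as reported in 4348 cases, a call was lost in 363 and gained in 66, and an uncalled difference changed sign in 151.

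Same-numbered arrays did not deviate together (correlations -0.0915, -0.124 and 0.0642), so no pairing by number was visible in the deposited values. Whether the numbers stand for a shared preparation was not tested. With the replicate number as a block, the ER genes called were 6 higher and 2 lower for both hairpins, 4 and 2 for shEzh2.781, 7 and 4 for shEzh2.556, and 1 and 0 between hairpins.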

Other observations

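Genes that ATF4 induces in the integrated stress response, and that lie outside the ER, were read next to Atf4, Ddit3, Trib3 and Chac1. Of 22 such genes 4 rose and none fell in the lymphomas of both hairpins, with a median log2 difference of 0.11, against 5.6% of all genes called higher and a median of 0.025. Asns, the asparagine synthetase, read 10.20 and 9.81 in premalignant cells, 11.24 and 11.34 in shEzh2.781 lymphomas, and 11.31 and 11.40 in shEzh2.556 lymphomas. All lymphoma arrays were more than 1 log2 unit above both premalignant arrays, and the rise was 2.50-fold (log2 difference 1.32, limma adjusted p = 1.65e-05), a call kept in every setting tried. Slc3a2 and Slc7a5, the chains of an amino acid transporter, rose by 0.43 and 0.38 (limma adjusted p = 0.0128 and 0.0191), and the transcription factor Cebpb rose by 0.37 (limma adjusted p = 0.0287). All 3 lost their call without either premalignant array, Slc3a2 at limma adjusted p = 0.0692 and 0.0827, Slc7a5 at 0.1 and 0.0811, and Cebpb at 0.209 and 0.0585. Atf4 mRNA was not called on the same arrays, and whether ATF4 took part in the rise of Asns was not tested.

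Of 20 genes of vesicle transport from the ER to the Golgi 1 rose and 3 fell, against 5.6% and 9.61% of all genes, with a median of -0.047 against 0.025. Sec23a, which forms the inner coat of the transport vesicle, read 9.47 and 9.44 in premalignant cells, 8.86 and 9.01 in shEzh2.781 lymphomas, and 8.77 and 8.87 in shEzh2.556 lymphomas. Its fall of 1.49-fold (log2 difference -0.58, limma adjusted p = 0.00172) was kept in every setting tried. Sec24d, a cargo adaptor of the same coat, read 7.25 on both premalignant arrays and between 6.04 and 6.75 on the lymphoma arrays (-0.85, limma adjusted p = 0.00462), and lost its call without either premalignant array (limma adjusted p = 0.0617 and 0.0652). The other calls were Mcfd2 (0.41, limma adjusted p = 0.0212) and Golgb1 (-0.36, limma adjusted p = 0.0354), and both were lost without either premalignant array (limma adjusted p = 0.15 and 0.0759 for Mcfd2, 0.231 and 0.0762 for Golgb1).

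The 3 immunoglobulin constant genes measured, Ighm, Igha and Ighg3, encode the main cargo of a secreting B cell, and all 3 fell. Their log2 differences were -2.06, -2.46 and -3.26 (limma adjusted p = 0.000445, 6.79e-05 and 1.04e-06). Their summed linear signal was 3433 to 4128 in premalignant cells, 531 to 1079 in shEzh2.781 lymphomas and 513 to 954 in shEzh2.556 lymphomas. The probe sets do not separate secreted from membrane transcripts here.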
